A study of Mus musculus with 24 samples.

Results

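Whole visceral fat from mice in which regulatory T cells lacked Pparg or Tbx21 was compared, with both knockouts pooled, against fat from control mice. Of the 24 libraries of the series, 16 were knockout and 8 control, so the comparison used every library. The tissue was visceral or perigonadal adipose tissue of mice 27 to 33 weeks old. The knockout libraries fell into 4 groups: Pparg knockout females (labelled PpargFoxp3cre), Tbet knockout females (TbetFoxp3cre) and males of each of these genotypes. Control females and control males carried the Foxp3 Cre alone, so every mouse in the comparison had the Cre. Each of the 6 groups had 4 libraries, 2 from each of the 2 batches named in the titles, with replicates 1 and 3 in batch 1 and replicates 2 and 4 in batch 2. The Cre is driven from the Foxp3 locus and acts in cells that express Foxp3, whereas the RNA came from the whole tissue. The comparison asked which transcripts of whole fat differed in both knockouts and in both sexes.

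Regulatory T cells are lymphocytes that restrain other immune cells, and their lineage is set by the transcription factor FOXP3. Those of visceral fat form a distinct population that in mice depends on the nuclear receptor PPARγ, and they have been studied for their influence on inflammation and insulin sensitivity of the tissue. T-bet, encoded by Tbx21, directs type 1 immunity, the programme built around interferon gamma and cytotoxic lymphocytes, and is also expressed by some regulatory T cells. Interferon gamma raises transcription of the genes for antigen presentation, on MHC class I through immunoproteasome and peptide transporter genes and on MHC class II through the coactivator CIITA.

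Levels below are CPM, counts relative to the scaled library size, and folds are log2 fold changes of knockout over control with sex and batch as covariates. Pparg, which fat cells themselves express strongly, had a lowest, median and highest level of 129, 233 and 284 CPM over the 16 knockout libraries, against 64.8, 254 and 362 CPM over the 8 control libraries. It had a fold change (log2) of 0.00 (SE 0.18, adjusted p = 0.999 with edgeR). Tbx21 levels were 0.0751, 1.21 and 2.65 CPM in knockouts, against 0.441, 1.09 and 1.75 CPM in controls (0.10, SE 0.46, adjusted p = 0.964). Foxp3 levels were 0.0694, 0.555 and 1.51 CPM in knockouts, against 0.126, 0.471 and 0.792 CPM in controls (0.49, SE 0.40, adjusted p = 0.696). The groups overlapped for each of these genes, and as other cells of fat also transcribe Pparg and Tbx21, the bulk levels do not check the genotypes. In bulk tissue, fewer cells of a type and less RNA per cell cannot be told apart.

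Libraries held 8345575 to 31022845 counts in knockouts and 14250142 to 30769949 in controls. The 16 tested markers of mature adipocytes, the tissue named in the labels, were summed in each library. The median was 43950 CPM (range 24300 to 49840) in knockout females and 35870 CPM (11680 to 64490) in control females. It was 49070 CPM (32730 to 62720) in knockout males and 55220 CPM (32720 to 68610) in control males. In 2 libraries the lists of reproductive tract and other epithelial genes stood apart. Their sum was 5579 CPM in Tbet knockout male replicate 4, which is 33.4 times the median of males. It was 6758 CPM in control female replicate 1, which is 82 times the median of females. No other library exceeded 4.52 times the median of its sex. Without both, an alternative chosen after seeing the data, the pooled comparison called 6 genes, including the 4 described below. The source name of control female replicate 1 also disagrees with its title on the batch, and the title was followed. With that library in batch 2 the pooled comparison called 3 genes, without Btaf1.

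Few genes separated the pooled knockouts from controls. Of 17824 genes tested, 4 passed an adjusted p of 0.05 (0.0224%). H2-DMa, a chaperone subunit of MHC class II peptide loading, was the only 1 that was higher in knockouts (0.00561%). The 3 that were lower (0.0168%) were Ide, Fgfbp3 and Btaf1, which lie close together on chromosome 19. At an unadjusted p under 0.05, 789 genes (4.43%) were higher and 1045 (5.86%) lower. DESeq2 called 257 genes on the same design, 99 higher and 158 lower, and edgeR called 1 to 14 when each library was left out in turn, as few as 1 without control female replicate 3 or control male replicate 2 and as many as 14 without Pparg knockout female replicate 3. The direction was the same in each knockout in each sex for 4397 genes (24.7%), but both knockouts were set against the same controls, so this share is not read as a measure of shared effect. The 4 called genes were among them. In no gene were all 16 knockout libraries above all 8 controls (0%), and in 1 gene, Ide, all were below (0.00561%).

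**Figure D1:**
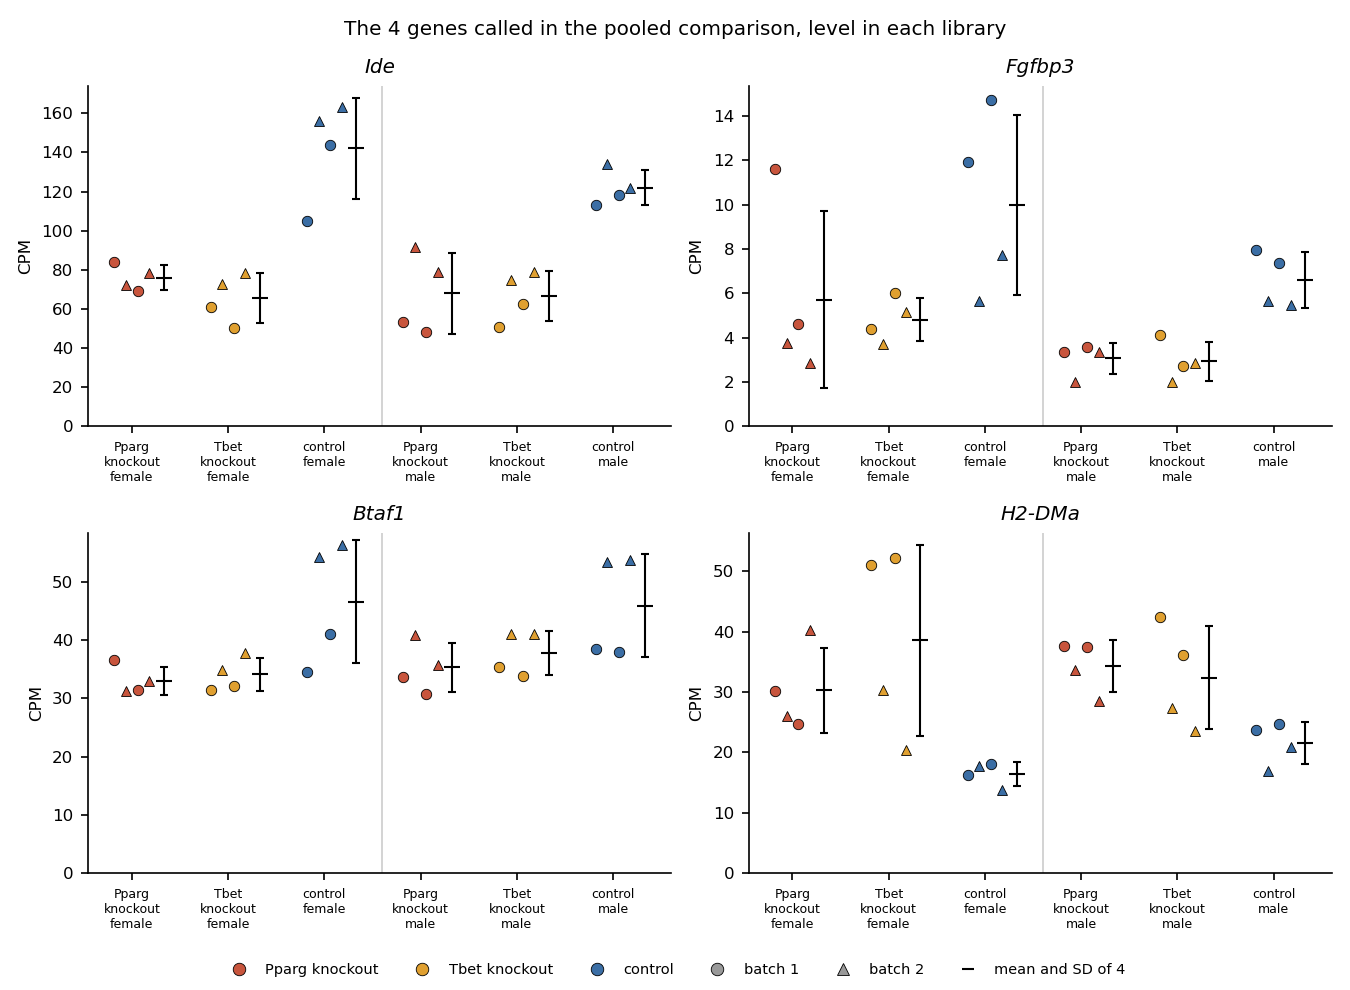
Levels (CPM) of Ide, Fgfbp3, Btaf1 and H2-DMa in each of the 24 libraries, by sex, with the knockout groups left of the control group. Circles are batch 1 and triangles batch 2, and each dash and bar is the mean and SD of 4 libraries. All knockout points for Ide lie below all control points, and the triangles of the Btaf1 controls lie above the circles.

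Ide encodes the insulin-degrading enzyme, a metalloprotease that cleaves insulin and other small peptides. Its level was lowest at 48.2 CPM, with a median of 72.5 and a highest value of 91.6 CPM in the 16 knockout libraries, against 105, 128 and 163 CPM in the 8 control libraries. Every knockout library was thus below every control library. Ide fell by 0.94 on the log2 scale (SE 0.08, adjusted p = 1.08e-06 with edgeR), with means of 69.1 ± 13.2 CPM in knockouts and 132 ± 21.0 CPM in controls (SD, n = 16 and 8).

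The lower Ide level was present in each of the 4 knockout groups and in each batch, at -1.0 in batch 1 (SE 0.134, adjusted p = 0.162 with edgeR) and -0.87 in batch 2 (SE 0.0868, adjusted p = 0.00118). Replicates 1 to 4 of Pparg knockout females had 83.9, 72.3, 69.3 and 78.5 CPM and those of Tbet knockout females 60.9, 72.8, 50.2 and 78.6 CPM, against 105, 156, 144 and 163 CPM in control females. Pparg knockout males had 53.4, 91.6, 48.2 and 78.7 CPM and Tbet knockout males 50.7, 74.6, 62.4 and 78.7 CPM, against 113, 134, 118 and 122 CPM in control males. Within each sex no knockout library reached the lowest control. Ide was also the 1 gene called in females alone (of 16763 tested, 0.00597%; log2 fold change -1.01, SE 0.12, adjusted p = 0.0485 with edgeR) and the 1 gene called in males alone (of 16914 tested, 0.00591%; -0.87, SE 0.10, adjusted p = 0.0283). These fits share no library. The female call was kept only without Pparg knockout female replicate 1 or 3 or control female replicate 1, and the male call only without Pparg knockout male replicate 2 or control male replicate 4, when 1 library at a time was left out. Neither single-sex call was made with the replicate number as a block. The male effect minus the female effect was 0.12 (SE 0.17, adjusted p = 0.841), and the Tbet effect minus the Pparg effect was -0.12 (SE 0.10, adjusted p = 0.9996).

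Fgfbp3, which encodes a secreted carrier protein of fibroblast growth factors, fell by 1.02 on the log2 scale (SE 0.16, adjusted p = 0.0160 with edgeR). It had 1.99, 3.65 and 11.6 CPM as lowest, median and highest in knockouts, against 5.46, 7.55 and 14.7 CPM in controls. The highest knockout value was that of Pparg knockout female replicate 1, and the groups overlapped in females but not in males. Its log2 fold change was -0.91 in females and -1.13 in males. The call was lost without control female replicate 3, without control male replicate 2, without the batch term and within each batch alone.

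Btaf1, which encodes a TATA-binding protein associated ATPase, fell by 0.39 on the log2 scale (SE 0.06, adjusted p = 0.01625 with edgeR). Its levels were 30.7, 34.4 and 41.0 CPM in knockouts, against 34.6, 47.2 and 56.3 CPM in controls. The 4 controls of batch 2 lay at 53.4 to 56.3 CPM, above every knockout library, and the 4 controls of batch 1 at 34.6 to 41.1 CPM, among the knockouts. The call was lost when control female replicate 2, 3 or 4 or control male replicate 2 or 4 was left out, without the batch term, within batch 1 alone (adjusted p = 0.729), with control female replicate 1 placed in batch 2, and with limma on log2 FPKM. Within batch 1 the log2 fold change of Btaf1 was -0.187 and within batch 2 it was -0.561.

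The lower calls covered an interval on chromosome 19 of 417 kb, from 36917550 to 37334544 in GRCm38, in which 6 genes were tested. Fgfbp3 lies at 36917550 to 36919599, Btaf1 at 36926079 to 37014057 and Ide at 37268743 to 37334544. Between Btaf1 and Ide, Cpeb3, a regulator of mRNA translation, had a log2 fold change of -0.04 and March5, a mitochondrial ubiquitin ligase, one of -0.00. A predicted clone in the interval was at -0.95 (SE 0.22, adjusted p = 0.181 with edgeR). The lower level was therefore not shared by every gene of the interval.

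Within 2 Mb on either side of Ide, 29 genes were tested, with a median log2 fold change of -0.056. Of these, 3 were called (0.0224% over all genes), and at an unadjusted p 5 were lower and 1 higher (5.86% and 4.43% over all genes). The window was centred on Ide because Ide was called, so these counts are not independent of that call. The 5 include Ide, Fgfbp3 and Btaf1 themselves. The others were the predicted clone of the interval (-0.95) and Fra10ac1 (-0.33, adjusted p = 0.292 with edgeR). The 1 that was higher was Hhex, a homeobox transcription factor, at 0.37 (adjusted p = 0.376 with edgeR). Around the genes that the knockouts target or are driven from, no gene was called by edgeR: 0 of 50 tested within 2 Mb of Pparg, 0 of 105 near Tbx21 and 0 of 47 near Foxp3, with 5, 14 and 5 past an unadjusted p of 0.05 in these windows, against 10.3% of all genes tested. As background, a copy number difference that includes Ide and Fgfbp3 has been described among mice of the C57BL/6J strain. The labels give no strain and copy number was not measured here, so its part in these levels was not tested.

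**Figure D2:**
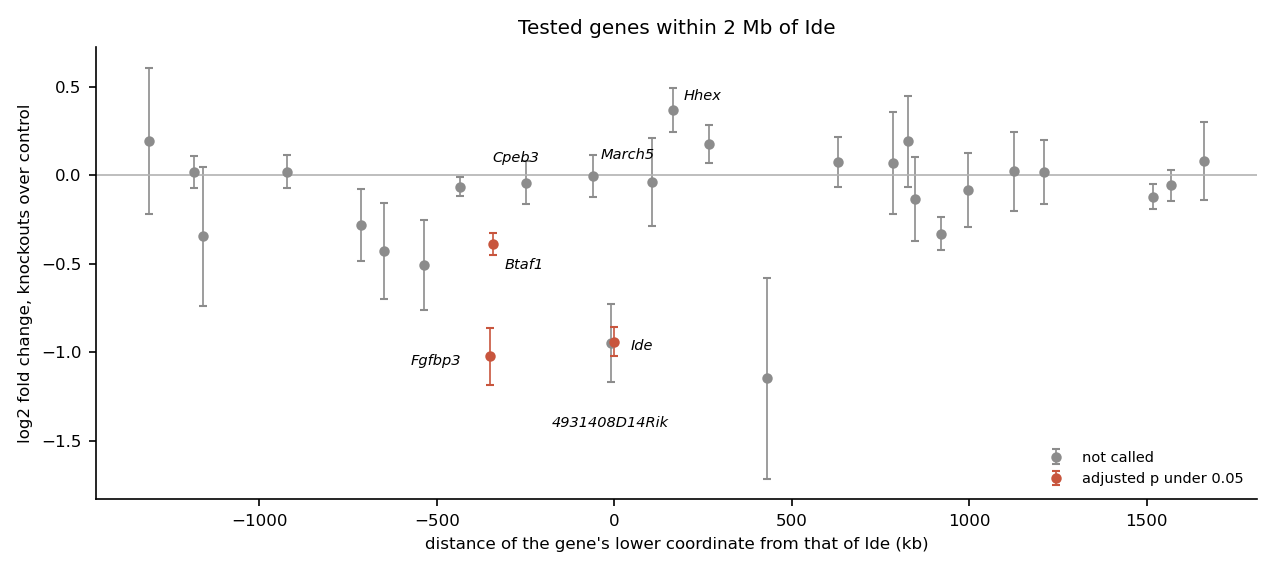
Log2 fold change of the pooled knockouts over controls, with its SE, for the 29 genes tested within 2 Mb of Ide, against the distance of each gene's lower coordinate from that of Ide in kb. The 3 called genes are in red, and Cpeb3 and March5, which lie between them, are near 0.

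H2-DMa encodes the alpha chain of the class II chaperone H2-DM, which exchanges the invariant chain fragment for antigen peptides. It had 20.4, 32.0 and 52.3 CPM as lowest, median and highest in knockouts, against 13.8, 17.9 and 24.7 CPM in controls. It rose by 0.83 on the log2 scale (SE 0.14, adjusted p = 0.01625 with edgeR), with means of 33.9 ± 9.36 CPM in knockouts and 19 ± 3.78 CPM in controls (SD, n = 16 and 8).

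In females H2-DMa was at 30.2, 26.1, 24.7 and 40.3 CPM in Pparg knockouts and 51.1, 30.3, 52.3 and 20.4 CPM in Tbet knockouts, against 16.2, 17.8, 18.1 and 13.8 CPM in controls. In males it was at 37.6, 33.6, 37.5 and 28.5 CPM in Pparg knockouts and 42.5, 27.3, 36.1 and 23.6 CPM in Tbet knockouts, against 23.7, 16.9, 24.7 and 20.9 CPM in controls. All female knockout libraries were above all female controls, and in males only Tbet knockout replicate 4 lay within the control range. The log2 fold change was 1.04 in females (SE 0.24, adjusted p = 0.149 with edgeR) and 0.64 in males (SE 0.10, adjusted p = 0.217), so neither sex alone passed the test. The pooled call was lost when control female replicate 1, 3 or 4 or control male replicate 2 was left out and without the batch term. It was also lost within batch 1 alone (0.942, adjusted p = 0.729) and batch 2 alone (0.741, adjusted p = 0.12). The male minus female difference was -0.42 (SE 0.25, adjusted p = 0.545). The Pparg knockouts gave 0.78 (adjusted p = 0.195) and the Tbet knockouts 0.88 (adjusted p = 0.0617) against the same controls. The H2-DMa record, chromosome 17 at 34119693 to 34139101 in GRCm38, overlaps that of Brd2 by 3122 bases. Whether the counting used strand is not stated, and Brd2 itself had a fold change (log2) of -0.04 (SE 0.05, adjusted p = 0.813).

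The other genes of the class II pathway were all on the higher side. Of 15 tested members of the list for MHC class II and dendritic cells, 15 had a positive log2 fold change, 1 was called and 7 passed an unadjusted p, at a list median of 0.595 (0.592 within batch 1, 0.637 within batch 2 and 0.682 without the 2 libraries high in epithelial genes). Over all genes the median was -0.0206, with 44.3% positive and 4.43% past the unadjusted p on the higher side. The 7 were H2-DMa, H2-Aa, H2-Ab1, H2-Eb1, Cd74, Ciita and H2-DMb1, and no dendritic cell marker of the list was among them. Zbtb46 averaged 10.1 CPM in knockouts and 10.5 CPM in controls, Xcr1 2.15 and 1.87, and Cd209a 11.4 and 10.1. Itgax averaged 20.9 and 17.8 CPM, Flt3 3.11 and 2.31, and Ccr7 1.97 and 1.4. By sex, 14 members were positive in females and 13 in males. H2-Aa and H2-Ab1 encode the alpha and beta chains of the class II molecule I-A. H2-Aa had 269, 381 and 639 CPM in knockouts, against 175, 233 and 272 CPM in controls, a difference of 0.77 (SE 0.14, adjusted p = 0.0752 with edgeR). H2-Ab1 had 209, 325 and 558 CPM in knockouts, against 140, 206 and 242 CPM in controls (0.73, SE 0.15, adjusted p = 0.0879). Neither passed the adjusted test, and both overlapped over the sexes together. Within each sex, however, H2-Aa was at 269 to 639 CPM in knockout females, against 175 to 250 CPM in control females, and at 319 to 433 CPM in knockout males, against 216 to 272 CPM in control males.

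Only H2-Aa and H2-Ab1, of all genes tested, had every knockout library above every control library in females and again in males (0.0112%). The single gene below in both sexes was Ide (0.00561%). In females taken alone 95 genes (0.533%) were higher without overlap and 43 (0.241%) lower, and in males 14 (0.0785%) and 17 (0.0954%).

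H2-Eb1, the beta chain of the class II molecule I-E, had 231, 341 and 588 CPM in knockouts, against 163, 225 and 248 CPM in controls (0.72, SE 0.15, adjusted p = 0.108 with edgeR). Cd74, the invariant chain that occupies the class II groove before peptide loading, had 532, 977 and 1470 CPM in knockouts, against 404, 584 and 772 CPM in controls (0.67, adjusted p = 0.147). H2-DMb1, the partner chain of H2-DMa, had 23.9, 34.7 and 61.2 CPM in knockouts, against 17.6, 23 and 39.6 CPM in controls (0.65, adjusted p = 0.234). These 3 genes were centred higher in knockouts with overlapping ranges and did not pass the adjusted test. Ciita, the coactivator of class II transcription, had 6.03, 17.9 and 44.3 CPM in knockouts, against 4.54, 11 and 24.4 CPM in controls (0.77, SE 0.19, adjusted p = 0.195), with the higher values mostly in batch 2. The list summed to 1349, 2040 and 3363 CPM as lowest, median and highest in knockout females, against 973.5, 1182 and 1359 CPM in control females. It summed to 1730, 2196 and 2444 CPM in knockout males, against 1365, 1544 and 1649 CPM in control males. In males the sums did not overlap, and in females they overlapped by a single pair of close values.

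**Figure D3:**
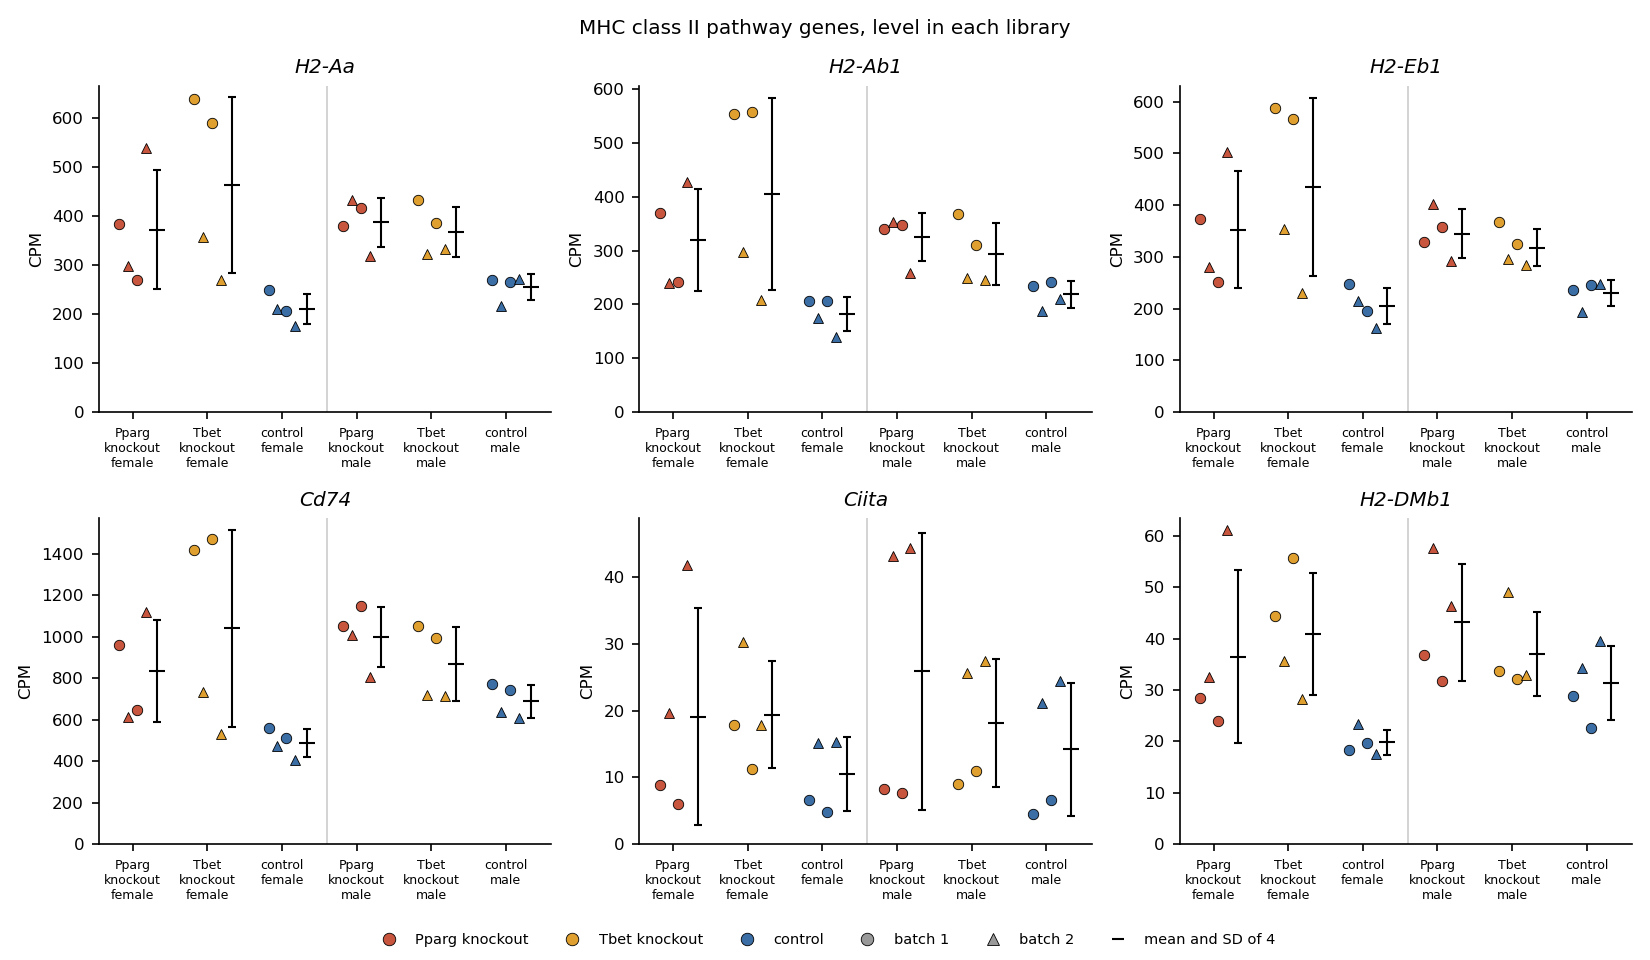
Levels (CPM) of class II pathway genes in each library, by sex, with the knockout groups left of the control group. Circles are batch 1 and triangles batch 2, and each dash and bar is the mean and SD of 4 libraries. The knockout points lie mostly above the controls in females and in males.

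The promoters of the class II chain genes are shown because these genes moved to the same side and because class II promoters share elements, the X box and the Y box, on which CIITA acts. RefSeq promoter windows of 300 bases (250 before and 50 after a listed start, GRCm38.p6) were found for 11 of the 15 members, which had 12 windows. On either strand, the Y box core TGATTGG was in the windows of 5 members, against 7.82% of all 32851 windows, and the X box stretch TGATGATG was in 3 members, against 1.44% of windows. Of these 3, H2-DMb1 and H2-Eb1 held both runs, and Zbtb46, a transcription factor of dendritic cells, held the X box stretch without the Y box core. Besides the genes printed below, H2-Oa and H2-Ob held the Y box core and did not pass the unadjusted p. H2-Oa averaged 1.75 ± 1.14 CPM in knockouts and 1.25 ± 0.989 CPM in controls, and H2-Ob 8.21 ± 5.27 and 7.82 ± 6.79 CPM. The motifs do not overlap each other in the windows shown, in which capitals mark them. A match is a description of the letters and not of a bound site. Other forms of the X box were not searched for, so a window without TGATGATG is not read as lacking an X box. H2-Aa (chr17:34287774-34288073, minus strand), H2-DMb1 (chr17:34152941-34153240, plus strand) and H2-Eb1 (chr17:34305617-34305916, plus strand) read, 5′ to 3′:
H2-Aa: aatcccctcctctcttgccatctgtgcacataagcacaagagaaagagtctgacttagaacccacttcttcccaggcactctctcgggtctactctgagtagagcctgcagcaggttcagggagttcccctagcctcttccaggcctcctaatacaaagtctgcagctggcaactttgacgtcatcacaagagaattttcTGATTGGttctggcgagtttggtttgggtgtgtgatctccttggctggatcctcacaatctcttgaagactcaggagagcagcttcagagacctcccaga
H2-DMb1: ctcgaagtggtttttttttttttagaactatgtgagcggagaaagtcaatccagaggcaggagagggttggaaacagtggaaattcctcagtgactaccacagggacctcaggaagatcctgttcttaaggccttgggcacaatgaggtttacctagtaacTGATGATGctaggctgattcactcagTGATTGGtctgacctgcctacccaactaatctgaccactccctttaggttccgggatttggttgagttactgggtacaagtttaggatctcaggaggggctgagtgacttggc
H2-Eb1: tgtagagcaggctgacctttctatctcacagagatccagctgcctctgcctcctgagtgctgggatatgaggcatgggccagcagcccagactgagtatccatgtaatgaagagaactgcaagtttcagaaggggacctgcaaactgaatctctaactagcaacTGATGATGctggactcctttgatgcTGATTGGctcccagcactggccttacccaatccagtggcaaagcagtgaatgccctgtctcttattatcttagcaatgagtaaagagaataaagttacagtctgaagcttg
The Y box core began 50 bases before the start of H2-Aa, 63 before that of H2-DMb1 and 61 before that of H2-Eb1. In H2-DMb1 and H2-Eb1 the X box stretch preceded it, with 18 and 17 bases between them. The windows listed for H2-DMa, at 34122582 to 34122881 and 34125268 to 34125567 on the plus strand, held neither run of letters. Both lie inside the H2-DMa record and not at its lower end. They therefore do not show whether a promoter at that end holds these runs.

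Genes of the class I pathway and of the interferon response also lay on the higher side, without any passing the adjusted test. All 14 class I and immunoproteasome genes had a positive log2 fold change, at a median of 0.379, and 11 passed an unadjusted p, against 4.43% of all genes. Tap1, a subunit of the transporter that delivers peptides to class I, averaged 75.9 ± 30.4 CPM in knockouts and 46.9 ± 9.28 CPM in controls (0.67, SE 0.20, adjusted p = 0.321 with edgeR). Psmb9, an immunoproteasome subunit, had a log2 fold change of 0.57 (adjusted p = 0.337) and B2m, the light chain of class I, one of 0.36. All 21 interferon response genes were positive at a median of 0.441, with 10 past the unadjusted p. Igtp, an interferon-induced GTPase, averaged 61.1 ± 50.3 CPM in knockouts and 27.2 ± 6.73 CPM in controls (1.07, SE 0.33, adjusted p = 0.348), and its spread among knockout libraries was several times that of controls. Gbp5, a guanylate-binding protein of the same response, was at 0.71 (adjusted p = 0.301), and Bst2, an antiviral membrane protein, at 0.44 (adjusted p = 0.348).

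Lymphocyte genes also lay mostly on the higher side. In the list of type 1 and cytotoxic lymphocytes 13 of 14 genes were positive, at a median of 0.575, and 6 passed an unadjusted p, against 4.43% of all genes on that side. Klrk1, the activating receptor NKG2D, averaged 4.19 ± 1.63 CPM in knockouts and 2.32 ± 0.611 CPM in controls (0.83, SE 0.19, adjusted p = 0.181 with edgeR). Ccl5, a chemokine of cytotoxic cells, averaged 12.4 ± 11.6 CPM in knockouts and 4.09 ± 1.69 CPM in controls (1.51, SE 0.49, adjusted p = 0.359). Gzmb, a granule protease, averaged 1.66 ± 1.20 CPM in knockouts and 0.637 ± 0.344 CPM in controls (1.35, SE 0.42, adjusted p = 0.348). For Ccl5 and Gzmb the SD of the knockouts exceeded the mean of the controls. Eomes, a transcription factor related to T-bet, was at 2.16 (SE 0.64, adjusted p = 0.319), and Nkg7, a cytotoxic granule protein, at 1.60 (SE 0.51, adjusted p = 0.348).

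All 14 pan T cell genes were positive, against 44.3% of all genes, at a median of 0.635, and 4 passed an unadjusted p, against 4.43% of all genes. Cd2, an adhesion receptor of T and NK cells, averaged 6.64 ± 2.89 CPM in knockouts and 3.45 ± 1.31 CPM in controls (0.97, SE 0.25, adjusted p = 0.235 with edgeR). Cd3d, a chain of the T cell receptor complex, had a fold change (log2) of 1.02 (SE 0.41, adjusted p = 0.434). Among 16 tested regulatory T cell genes 13 were positive and 3 negative, at a median of 0.427, with 4 past the unadjusted p. Il2ra, the high-affinity IL-2 receptor chain, averaged 8.09 ± 2.18 CPM in knockouts and 5.66 ± 1.31 CPM in controls (0.52, SE 0.16, adjusted p = 0.333). Il1rl1, the IL-33 receptor ST2 that marks regulatory T cells of visceral fat and is also made by other cells, averaged 9.76 ± 3.87 CPM in knockouts and 6.73 ± 2.69 CPM in controls (0.58, SE 0.22, adjusted p = 0.422). The 3 negative members were Areg, the growth factor amphiregulin, at -2.05 (SE 1.26), Il10, a suppressive cytokine, at -0.60 (SE 0.58), and Ikzf2, the transcription factor Helios, at -0.37 (SE 0.21). No member of either list passed the adjusted test.

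Other immune lists are read against the 4.43% of all genes that were higher at the unadjusted p. In the type 2 immunity list 10 genes were positive and 4 negative, at a median of 0.417 with 2 past it, and in the B cell and plasma cell list 10 were positive and 2 negative, at a median of 0.64 with 1 past it. Of 12 B cell genes and 15 cytokine and chemokine genes tested, 1 each passed it, which is near that background. The cytokine and chemokine median was 0.397. The resident macrophage list had a pooled median of 0.337 with 0 past the unadjusted p. In females 7 of 14 of its genes passed it and in males 0, against 16.4% and 5.23% of all genes. The lipid-associated macrophage list had a median of 0.25 with 3 higher. Without control female replicate 1 the medians were 0.202 for resident macrophages, 0.147 for lipid-associated macrophages and 0.26 for type 2 immunity. Immediate early and stress genes, which respond to handling of tissue as well as to signals in it, were positive in 14 of 14 cases at a median of 0.42, with 6 past the unadjusted p. Fosb, a subunit of the AP-1 transcription factor, averaged 5.16 ± 3.51 CPM in knockouts and 2.24 ± 0.886 CPM in controls (1.21, SE 0.34, adjusted p = 0.290 with edgeR). Egr1, an early growth response factor, had a fold change (log2) of 0.82 (SE 0.29, adjusted p = 0.390). The part of these genes in the immune differences was not tested.

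Markers of lymph node stroma, which would come with a lymph node left in the fat, moved in part with the lymphocyte genes. Of 8 tested, 5 were positive and 3 negative, at a median of 0.451, with 0.397 in Pparg and -0.304 in Tbet knockouts. The 1 past the unadjusted p, against 4.43% of all genes on the higher side, was Ccl19, a chemokine of lymph node stroma, at 1.18 (SE 0.39). The list summed to a median of 103.9 CPM (71.23 to 260.3) in knockout females and 98.36 CPM (43.8 to 146.5) in control females. In males the median sum was 111.5 CPM (50.76 to 186.6) in knockouts and 109.1 CPM (78.18 to 136.3) in controls. Glycam1 and Madcam1, made by the vessels through which lymphocytes enter lymph nodes, averaged 0.334 ± 0.711 and 0.216 ± 0.242 CPM in knockouts, against 0.822 ± 1.65 and 0.261 ± 0.254 CPM in controls. The part of lymph node RNA in the lymphocyte values was not tested.

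Separate fits of the sexes are set side by side. In females 1458 genes (8.7%) were higher and 1291 (7.7%) lower at an unadjusted p under 0.05, and in males 501 (2.96%) and 384 (2.27%). In either direction this was 16.4% of genes in females and 5.23% in males. The male share is close to what a threshold of 0.05 passes without any effect. How many genes would pass in both sexes by chance was not computed, so the counts below describe overlap only. Among 16128 genes tested in both sexes, 97 (0.601%) were higher in both and 37 (0.229%) lower in both. Together these 134 genes made up 4.98% of the genes past the unadjusted p in females and 15.4% of those in males, while 50 genes passed in opposite directions (1.86% and 5.74%). No gene was called for a difference between the male and the female effect (0%). At an unadjusted p under 0.05, 1979 genes differed, and DESeq2 called 194.

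Class II genes were the largest group among those higher in both sexes within the 30 lists. They were H2-DMa, H2-Ab1, H2-Aa, H2-Eb1, Cd74, Ciita and H2-DMb1, 7 of the 15 members, against 0.601% of the genes tested in both sexes. The type 1 lymphocyte list gave 4 of 14 (Klrk1, Eomes, Gzmb and Ccl5), the interferon list 4 of 21 (Igtp, Irgm1, Gbp3 and Bst2), the immediate early list 2 of 14 (Fosb and Zfp36) and the pan T cell list 1 of 14 (Cd2). On the lower side only Acacb of the lipogenesis list and Ide of the insulin list passed in both sexes. The list median for class II was 0.896 in females and 0.41 in males, for type 1 lymphocytes 0.871 and 0.458, for interferon genes 0.591 and 0.406, and for T cells 0.868 and 0.57. The class I median was 0.675 in females and 0.166 in males, and that of resident macrophages 0.733 and -0.022. The median over all genes was -0.0216 in females and 0.0188 in males.

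**Figure D4:**
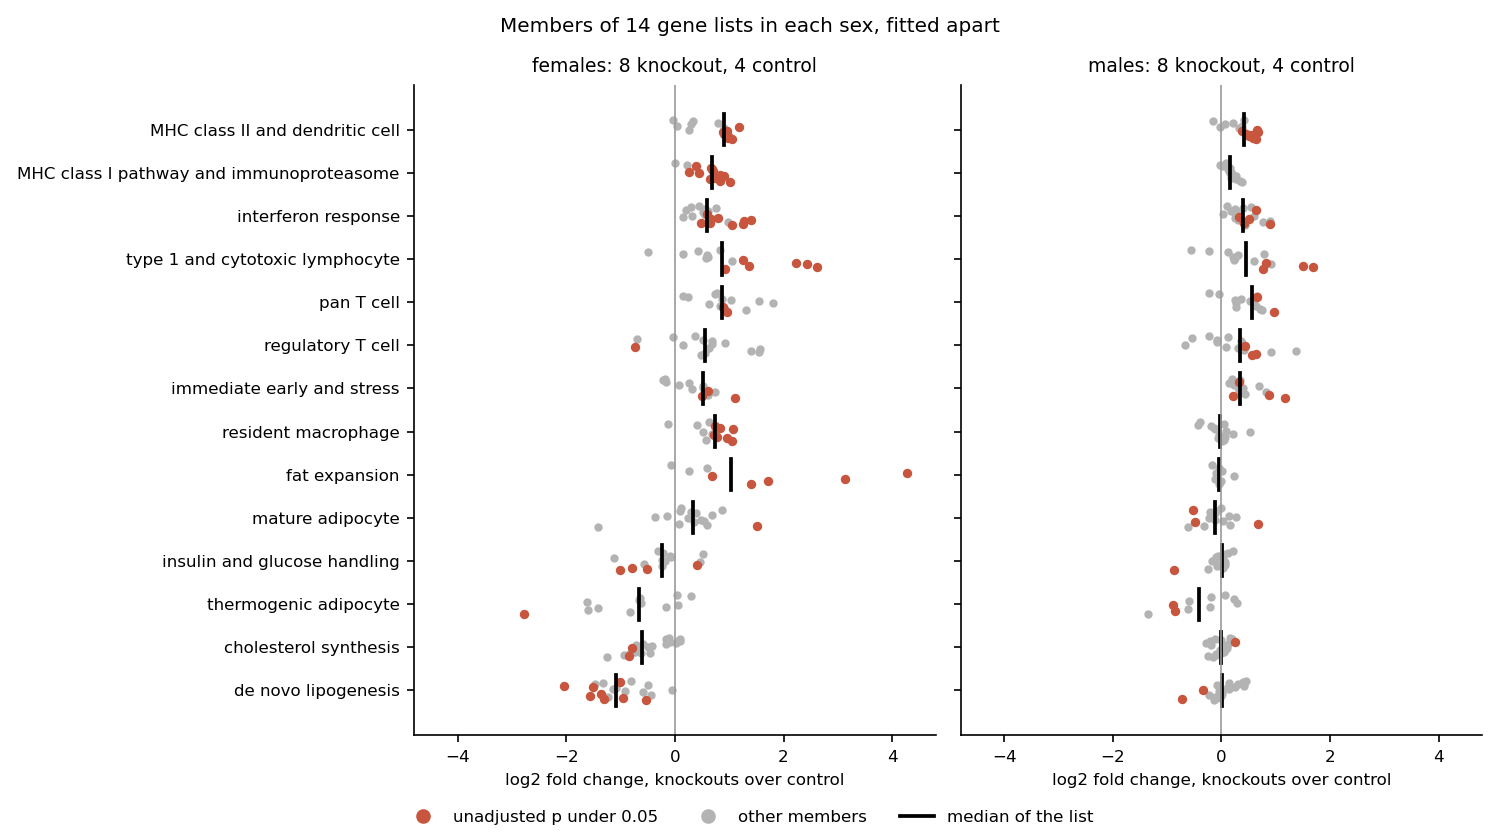
Log2 fold change of knockout over control for each tested member of 14 gene lists, from fits of the 12 female libraries (left panel) and of the 12 male libraries (right panel). Red points passed an unadjusted p of 0.05 and black bars are list medians. The class II, interferon, type 1 lymphocyte and T cell medians are above 0 in both panels, and the lipogenesis median is -1.09 in females and 0.00842 in males.

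The knockouts, which share their controls, are given side by side. Against controls over both sexes 1 gene was called in the Pparg knockouts (Ide, 0.00561%) and 2 in the Tbet knockouts (0.0112%). Those 2 were Ide and Mup7, a major urinary protein gene with a mean of 0.0749 CPM in the pooled knockouts and 0.477 CPM in controls. Ide had a log2 fold change of -0.88 in Pparg knockouts (SE 0.10, adjusted p = 0.000124 with edgeR) and -1.0 in Tbet knockouts (SE 0.10, adjusted p = 1.3e-05). The direct comparison of Tbet with Pparg knockouts, a contrast without the control level although the controls took part in the fit of spread and batch, called no gene (0%), with 893 genes past an unadjusted p of 0.05 and 9 called by DESeq2. Median log2 fold changes were 0.687 in Pparg and 0.456 in Tbet knockouts for class II genes, 0.404 and 0.505 for interferon genes, and 0.546 and 0.749 for type 1 lymphocyte genes. B cell genes had medians of 1.12 and -0.122, and lipogenesis genes -0.258 and -0.973. Split further by sex, Tbet knockout males had the lowest immune medians of the 4 groups. These were 0.32 for class II, 0.237 for interferon and 0.186 for type 1 lymphocyte genes. For pan T cell, class I and B cell genes they were 0.266, 0.0554 and -0.925. In the same order, Tbet knockout females had 1.03, 0.785, 0.919, 0.98, 0.774 and 0.508. Pparg knockout males had 0.588, 0.442, 0.63, 0.757, 0.211 and 1.19, and Pparg knockout females 0.798, 0.37, 0.788, 0.701, 0.529 and 1.02.

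Among programmes of fat cells, lipogenesis, the synthesis of fatty acids, lay on the lower side. All 19 lipogenesis genes were negative in the pooled comparison, at a median of -0.522, and 5 passed the unadjusted p, against 5.86% of all genes. The median was -1.09 in females, 0.00842 in males, -0.129 within batch 1 and -0.96 within batch 2. Split by knockout, it was -0.448 in Pparg and -2 in Tbet knockout females, and -0.00153 in Pparg and -0.0353 in Tbet knockout males. Acacb, the mitochondrial acetyl-CoA carboxylase, had 36.3, 110 and 205 CPM as lowest, median and highest in knockouts, against 124, 175 and 429 CPM in controls. Its log2 fold change was -1.09 (SE 0.27, adjusted p = 0.194 with edgeR), with -1.30 in females and -0.73 in males. Elovl5, an elongase of polyunsaturated fatty acids, had 103, 125 and 153 CPM in knockouts, against 130, 155 and 211 CPM in controls (-0.35, SE 0.07, adjusted p = 0.134), with -0.54 in females and -0.14 in males. Scd1, the stearoyl-CoA desaturase, was at -0.72 (SE 0.33, adjusted p = 0.463) and Me1, the malic enzyme that supplies NADPH, at -0.80 (adjusted p = 0.463). The ranges overlapped and no member passed the adjusted test.

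Mest, an imprinted gene whose transcript is high in expanding fat, had unlike values in females and males. It had 78.0, 188 and 551 CPM as lowest, median and highest in knockout females, against 15.4, 19.8 and 37.7 CPM in control females, without overlap. In males it had 278, 456 and 628 CPM in knockouts, against 371, 489 and 662 CPM in controls, with full overlap. The log2 fold change was 3.14 in females (SE 0.52, adjusted p = 0.107 with edgeR), -0.12 in males and 1.20 in the pooled comparison (SE 0.50, adjusted p = 0.443). The male minus female difference of -3.31 (SE 0.58) had an adjusted p of 0.0632. Npr3, the natriuretic peptide clearance receptor, was at 1.40 in females and -0.04 in males, and Bmp3, a bone morphogenetic protein, at 1.72 and -0.00. The fat expansion list had 7 positive and 1 negative genes, with 4 past the unadjusted p on the higher side, against 4.43% of all genes. Its medians were 1.04 in females and -0.0403 in males.

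Mature adipocyte genes showed no common direction in the pooled comparison, with 9 positive, 7 negative, a median of 0.0066 and 0 past the unadjusted p. In females 13 of 16 were positive, at a median of 0.332, and in males 5 of 16, at a median of -0.117. Cholesterol synthesis genes had 4 positive and 20 negative members and a median of -0.294, with -0.6 in females and -0.00811 in males. Of 24, 2 were lower past the unadjusted p, against 5.86% of all genes. The cholesterol median was -0.092 in Pparg and -1.13 in Tbet knockout females, and -0.0706 in Pparg and -0.00982 in Tbet knockout males. In the insulin and glucose list, to which Ide belongs, 3 genes were positive and 12 negative, at a median of -0.165, with 3 past the unadjusted p on the lower side, and a median of 0.0209 within batch 1 and -0.357 within batch 2. Pik3r1, the regulatory subunit of PI3 kinase, had 160, 227 and 343 CPM in knockouts, against 230, 281 and 482 CPM in controls (-0.39, SE 0.12, adjusted p = 0.348 with edgeR). Irs1, an insulin receptor substrate, was at -0.41 (SE 0.15, adjusted p = 0.413). Both overlapped between the groups over the sexes together. For Irs1 the female groups were apart, at 69.3 to 99.2 CPM in knockouts, against 101 to 200 CPM in controls. The male groups overlapped, at 38.3 to 57.2 CPM in knockouts, against 36 to 72.9 CPM in controls. The median of the insulin and glucose list was -0.23 in females and 0.00469 in males.

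Genes of thermogenic adipocytes had 2 positive and 10 negative members, at a median of -0.547, with 2 past the unadjusted p, against 5.86% of all genes on the lower side. Split by knockout, the median was -0.133 in Pparg and -1.22 in Tbet knockout females, and -0.535 in Pparg and -0.125 in Tbet knockout males. Dio2, the deiodinase that activates thyroid hormone in brown fat, had 0.101, 1.46 and 6.78 CPM in knockouts, against 1.56, 6.42 and 17.3 CPM in controls (-2.12, SE 0.54, adjusted p = 0.243 with edgeR). Cox8b, a muscle and brown fat subunit of cytochrome oxidase, was at -0.85 (SE 0.32, adjusted p = 0.421). Without the 2 libraries high in epithelial genes the list median was -0.168, and without control female replicate 1 alone it was -0.17. Oxidative phosphorylation genes had a median of -0.0748 with 1 lower past the unadjusted p.

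**Figure D5:**
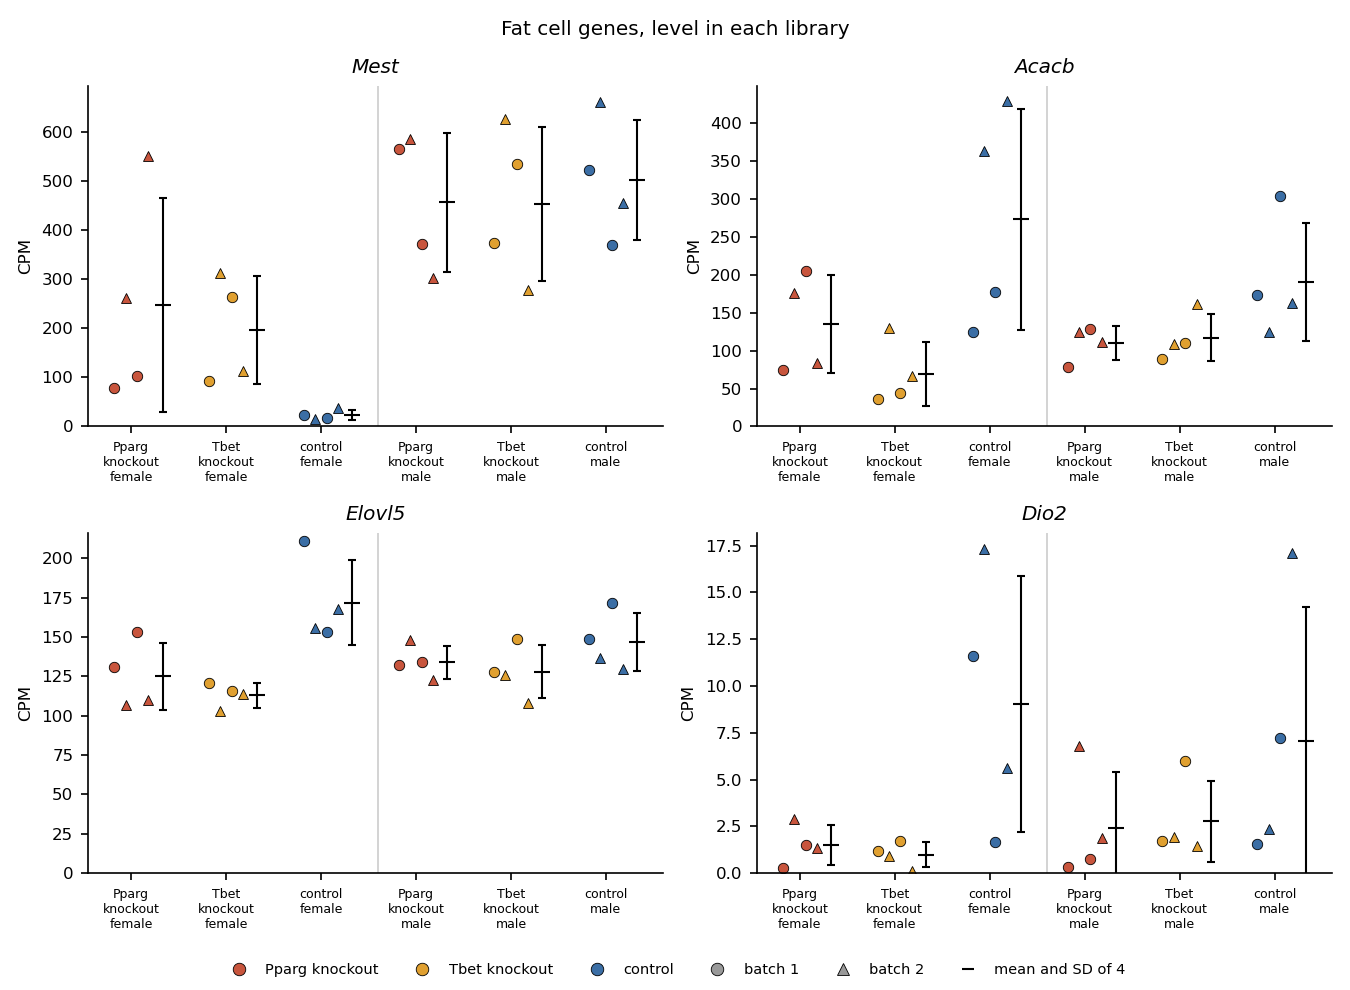
Levels (CPM) of Mest, Acacb, Elovl5 and Dio2 in each library, by sex, with the knockout groups left of the control group. Circles are batch 1 and triangles batch 2; each dash and bar is the mean and SD of 4 libraries, with bars cut at 0. The female knockout points for Mest lie above the female controls, while the male groups overlap.

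Lists for the structural cell types of fat had pooled medians of 0.0286 for extracellular matrix genes (0 past the unadjusted p on the higher side), 0.146 for stromal progenitors (2 higher) and 0.168 for endothelial cells (1 higher). Over all genes 4.43% were higher at that p and 5.86% lower. The endothelial median was 0.498 in females, with 9 of 11 genes past the unadjusted p (16.4% over all genes). In males the endothelial median was -0.0545, with 1 past it (5.23% over all genes). It was 0.0633 in the pooled comparison without control female replicate 1, and the extracellular matrix median was then -0.0152. Pi16, a marker of early stromal progenitors, was at 0.67 (SE 0.24, adjusted p = 0.390 with edgeR). Mesothelium genes had a median of -0.296, with 2 positive and 8 negative, but -0.816 within batch 1, 0.795 within batch 2 and 0.0262 without control female replicate 1. Cell cycle genes had a median of 0.129 and circadian clock genes one of 0.0629, with 1 lower past the unadjusted p. The lists of other tissues had medians of 0.131 for male reproductive tract (3 tested), -0.932 for female reproductive tract (3 lower), 0.263 for mammary and other epithelium, and 0.0579 for muscle, pancreas and blood. The median for mammary and other epithelium changed sign in 25 of 38 alternatives, at -1.91 within batch 1, 1.77 within batch 2 and 1.32 without control female replicate 1, so no direction is read from it. That for muscle, pancreas and blood was -0.1 without control female replicate 1. The female reproductive tract median was 0.0177 without the 2 libraries high in these genes and 0.0511 without control female replicate 1 alone.

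Just above the threshold, 5 genes had an adjusted p between 0.05 and 0.1, and 50 genes in all, 30 of them higher, were under 0.2. Besides H2-Aa and H2-Ab1 they include Dnajb9, a chaperone of the endoplasmic reticulum, with 28.1, 39.3 and 71.0 CPM in knockouts, against 41.5, 56.1 and 86.9 CPM in controls (-0.44, SE 0.08, adjusted p = 0.0879 with edgeR). They also include Cyp2f2, a cytochrome P450, with 0.659, 11.1 and 29.5 CPM in knockouts, against 8, 68.3 and 352 CPM in controls (-2.82, SE 0.55, adjusted p = 0.0879). For Cyp2f2 the female groups were apart, at 0.659 to 29.5 CPM in knockouts, against 36.7 to 352 CPM in controls, and the male groups overlapped. Above 0.1, Gstm6, a glutathione transferase, had 4.51, 10 and 61.8 CPM in knockouts, against 0.752, 4.41 and 8.09 CPM in controls (1.78, SE 0.36, adjusted p = 0.102). Wdfy1, an adaptor of endosomal signalling, had 31.8, 44.8 and 65.3 CPM in knockouts, against 24.4, 27.1 and 40.8 CPM in controls (0.67, SE 0.14, adjusted p = 0.113). None of these genes passed the adjusted test.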

How the data were processed

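Total RNA from visceral fat was sequenced from TruSeq libraries in 24 samples. The raw counts were deposited by the authors as 1 table of 27179 genes, made with featureCounts on GRCm38 or mm10, per the submitters' processing notes. Deposited log2 FPKM values, computed by the authors, served 1 alternative. The aligner, the annotation and the tool versions: not given in the sources used here. Genes without a symbol (1029, with 0.433% of counts) were tested but not named. RefSeq for GRCm38.p6 gave positions of 25275 genes.

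Counts were filtered with filterByExpr by group, scaled by TMM and tested in R 4.3.3 with edgeR 4.0.16 (robust quasi-likelihood F test), with sex and batch as covariates and 20 residual degrees of freedom in the pooled comparison. Calls were made at a p under 0.05 after Benjamini-Hochberg adjustment across every tested gene. Females and males were also fitted apart, and 7 comparisons were made. The scripts were tested on simulated data. Alternatives used DESeq2 1.42.0, limma 3.58.1, other scalings, filters and covariates, each batch alone, and each library left out. Log2 CPM used a prior count of 2. The biological coefficient of variation was 0.419. No source says that each library is a separate animal, and the titles of each group repeat the same numbers in both batches. The p-values therefore measure spread between libraries only, and reads are not independent molecules.

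The comparison, the 30 lists (419 genes, 386 tested) and the tests were chosen with earlier results of these data known. The naming rule took Pparg, Tbx21 and Foxp3, then called genes whose average log2 CPM was 1 or more with the same sign in each knockout in each sex, up to 10 each way, then up to 2 members of each list with a called member. Those were H2-DMa, Ide, Fgfbp3, Btaf1, H2-Aa and Pik3r1. All other genes, including those near the threshold, were named after their values were seen. Predicted genes and pseudogenes were counted and not named.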

Additional observations from a re-analysis of the deposited data

Results flagged for a closer look

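Among 43 genes named with their values and the summed epithelial lists, 264 groups of 4 libraries were looked at for a library far from the other 3. In 24 groups the gap of that library to its nearest neighbour, as a share of the group's range, passed Dixon's limit; chance gives about 1 in 20 groups. No gene was called for a difference between sexes or between knockouts.

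Several of these were interferon response, class I pathway and type 1 lymphocyte genes in Pparg knockout female replicate 4, which was the highest of its group. The shares were 0.918 for Gbp5 (65.1 CPM), 0.889 for Igtp (88.5 CPM), 0.906 for Tap1 (115 CPM), 0.833 for Psmb9 (60.5 CPM), 0.929 for Gzmb (4.76 CPM) and 0.876 for Ccl5 (44.6 CPM). Pparg knockout male replicate 2 was the highest for Igtp (0.902, 136 CPM), Gbp5 (0.832, 68.5 CPM) and Egr1 (0.926, 84.1 CPM), and the lowest for Fgfbp3 (0.858, 2.01 CPM). Control female replicate 2 was the highest for Tap1 (0.932, 53.4 CPM) and Psmb9 (0.884, 37.6 CPM).

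In Tbet knockout females Gbp5 stood apart in replicate 2 (0.84, 97.1 CPM) and Gzmb in replicate 1 (0.905, 2.73 CPM). In Tbet knockout males Me1 (0.921, 668 CPM) and Dio2 (0.886, 6 CPM) were highest in replicate 3, and H2-DMb1 (0.911, 49.0 CPM) in replicate 2. Pik3r1 was highest in Pparg knockout female replicate 3 (0.83, 287 CPM), and H2-Ab1 lowest in Pparg knockout male replicate 4 (0.862, 259 CPM). In controls, H2-Aa was lowest in male replicate 2 (0.893, 216 CPM), Klrk1 highest in male replicate 4 (0.835, 3.33 CPM) and Egr1 highest in female replicate 3 (0.85, 44.6 CPM).

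The summed epithelial and reproductive tract lists stood apart in Tbet knockout male replicate 4 (0.97, 5579 CPM) and in control female replicate 1 (0.992, 6758 CPM).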

How the results depend on the processing

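The pooled count of 4 genes stayed within 1.5 times under other scalings, filters and log2 FPKM values. It was 257 with DESeq2, 1 without batch, 7 as the mean of the 4 group effects, 44 with quality weights in voom, 0 within batch 1 alone (1196 at an unadjusted p under 0.05) and 24 within batch 2 alone (13 higher, 11 lower). Leaving out a library gave 1 to 14 genes: 1 without control female replicate 3 or control male replicate 2, 2 without control female replicate 4, 7 without control male replicate 1, and 14 when Pparg knockout female replicate 3 was left out. Over 38 alternatives Ide was called in 37 (-1.0 to -0.87; adjusted p = 0.162 in batch 1 alone), Fgfbp3 in 33 (-1.12 to -0.957), H2-DMa in 31 (0.734 to 0.942) and Btaf1 in 29 (-0.561 to -0.187), each in 1 direction throughout. Besides the batch 1 fit and the fit without batch, Fgfbp3 was lost in batch 2 alone and without control female replicate 3 or control male replicate 2. H2-DMa was lost in batch 2 alone and without control female replicates 1, 3 or 4 or control male replicate 2. Btaf1 was lost with control female replicate 1 placed in batch 2 (3 genes called), with limma on log2 FPKM and without control female replicates 2, 3 or 4 or control male replicates 2 or 4. The causes were not tested.

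In females DESeq2 called 881 genes (565 higher, 316 lower), against 1 with edgeR. Leaving out a library gave 0 to 56: 56 without Pparg knockout female replicate 3, 2 without replicate 1, and 0 without replicates 2 or 4, any Tbet knockout female, or control female replicates 2, 3 or 4. In males DESeq2 called 26, and 0 were called without the library high in epithelial genes (870 at an unadjusted p). Leaving out a library gave 0 to 2 in males: 2 without Pparg knockout male replicate 2, and 0 without replicates 1, 3 or 4, any Tbet knockout male, or control male replicates 1, 2 or 3. The difference between sexes gave 194 genes with DESeq2 and 0 to 8 on leaving out a library (8 without Pparg knockout female replicate 1, 5 without replicate 3). The Pparg comparison gave 65 with DESeq2, 2 without both epithelial libraries, and 1 to 3 on leaving out a library (3 without Pparg knockout female replicate 1, 2 without control female replicate 1). The Tbet comparison gave 153 with DESeq2 and 1 to 4 (1 without Tbet knockout female replicates 1 or 3, 4 without male replicate 4). Tbet against Pparg gave 9 with DESeq2 and 0 to 0.

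Pairing was not given by the labels. After removal of batch means, libraries of different groups with the same replicate number correlated at -0.636 to 0.586, over 0.1 in 13 of 60 pairs. Within each group the titles repeat the same numbers in both batches. Whether an equal number means the same animal is not stated, and such a pairing was not fitted. With the replicate number as a block the pooled count was 4, that of females 0 (2325 at an unadjusted p) and that of males 0 (752).

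Between batch 1 and batch 2, list medians turned sign for mesothelium (-0.816, 0.795), mammary and other epithelium (-1.91, 1.77), female reproductive tract (-1.76, 0.151), mature adipocytes (0.426, -0.191), insulin (0.0209, -0.357), extracellular matrix (-0.0585, 0.193), oxidative phosphorylation (0.121, -0.189), circadian clock (0.124, -0.0168) and muscle, pancreas and blood (0.238, -0.104). They kept their sign with unequal size for lipogenesis (-0.129, -0.96), cholesterol (-0.0164, -0.427), thermogenic (-0.754, -0.348) and fat expansion genes (0.762, 0.344), and were 0.592 and 0.637 for class II. The groups of 4, with 8345575 counts in the shallowest library, limit what single sexes can show.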
